A study of Homo sapiens with 9 samples.

Results

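The kallikrein cluster is a stretch of human chromosome 19 that carries the genes of the secreted kallikrein-related serine proteases side by side, and its open chromatin was examined in VCaP prostate cancer cells and in an enzalutamide-resistant line derived from them. The peak lists of the 9 libraries were merged wherever peaks shared 1 bp or more, and merged regions overlapping chr19:51290000-51600000 (hg19) were taken. This gave 32 of 94773 merged regions, numbered R1 to R32 along the chromosome. The intervals used for genes were 51.358 to 51.364 Mb for KLK3, 51.376 to 51.384 Mb for KLK2 and 51.409 to 51.414 Mb for KLK4. In the RefSeq gene order KLK1 and KLK15 come before KLK3, the pseudogene KLKP1 lies between KLK2 and KLK4, and KLK5 to KLK14 follow KLK4. KLK1 and KLK15 were not placed more closely, because no hg19 annotation was used here.

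The assay was ATAC-seq, which cuts and tags DNA with the transposase Tn5 where nucleosomes leave it open, so that reads gather into peaks over accessible chromatin. VCaP is an established prostate cancer line that depends on the androgen receptor, and enzalutamide is an antagonist of that receptor. VCaP16 libraries came from the enzalutamide-resistant line kept in 16 µM enzalutamide, VCaP_ENZ libraries from VCaP cells given 10 µM enzalutamide for 96 h, and VCaP_DMSO libraries from VCaP cells given the solvent, with 3 libraries in each group. All groups were grown in DMEM with serum and are labelled wild type. Every VCaP16 library carries the drug, and line and drug cannot be told apart against VCaP_DMSO. The VCaP16 and VCaP_ENZ groups differ in dose, line and exposure together, since VCaP16 was kept in the drug for a time that is not stated. Whether VCaP16 is a single clone is not stated. Since the labels name no separate cultures, a p-value here measures only how these libraries spread.

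Kallikreins are made as inactive precursors, secreted and activated by cleavage. KLK3 encodes prostate-specific antigen, which liquefies semen and is measured in blood as a marker of prostate cancer, and KLK2 encodes a trypsin-like protease that can activate the KLK3 precursor. Transcription of both in prostate luminal cells is driven by the androgen receptor, which binds response elements in their promoters and, for KLK3, in an enhancer upstream of the gene.

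The start regions of KLK3 and KLK2 are printed because they are near copies, while peaks were called within the interval of KLK2 and not within that of KLK3. The windows run from 250 bases before to 50 bases after the start and come from RefSeq on GRCh38.p14, so their positions are not those of the peaks, which are on hg19. KLK3 is chr19:50854665-50854964 on the + strand and KLK2 is chr19:50873189-50873488 on the + strand, and capitals mark the longest run that both share.
KLK3: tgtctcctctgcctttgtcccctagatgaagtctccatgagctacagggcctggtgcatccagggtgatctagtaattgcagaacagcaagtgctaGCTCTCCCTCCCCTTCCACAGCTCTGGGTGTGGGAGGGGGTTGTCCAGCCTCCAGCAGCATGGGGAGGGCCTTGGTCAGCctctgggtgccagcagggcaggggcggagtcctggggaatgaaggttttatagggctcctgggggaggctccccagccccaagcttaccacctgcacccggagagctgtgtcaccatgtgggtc
KLK2: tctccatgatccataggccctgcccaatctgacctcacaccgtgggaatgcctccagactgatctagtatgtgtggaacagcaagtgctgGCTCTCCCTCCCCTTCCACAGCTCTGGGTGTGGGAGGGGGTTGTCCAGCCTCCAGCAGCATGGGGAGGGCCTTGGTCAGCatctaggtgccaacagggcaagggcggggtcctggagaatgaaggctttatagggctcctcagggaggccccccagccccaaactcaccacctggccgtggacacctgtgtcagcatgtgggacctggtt
The shared run was 80 bases long and began 154 bases before the KLK3 start and 160 bases before the KLK2 start. The aligned windows were identical at 245 of 309 columns, or 79.3%. Windows were found for 4 of the 5 genes searched (KLK3, KLK2, KLK4 and KLK15, with 6 windows in all), and the other pairs of windows were between 41.4% and 50.5% identical. KLK1 was searched as well.

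Motifs were searched on both strands in these 6 windows and in all 35116 windows of the RefSeq table. The hormone receptor half-site AGAACA, or on the other strand TGTTCT, was found in the KLK3 window only, 170 bases before the start, and 14.8% of all windows held it. At the matching place before the shared run the KLK2 window reads GGAACA, which the exact search does not count. The box TATAAA, or on the other strand TTTATA, was found 28 bases before the KLK3 start, 34 bases before the KLK2 start and 30 bases before 1 of the starts of KLK15, against 11.5% of all windows. Read along the window, the KLK3 and KLK2 matches were TTTATA and the KLK15 match was TATAAA. No window of the 4 genes held the forkhead core TGTTTAC, the ETS core CCGGAAG, the AP-1 core TGANTCA or the GATA core AGATAA, which 3.42%, 10.3%, 7.71% and 10.3% of all windows held. These are matches of letters in short windows and show no binding.

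Depth is unknown, since the lists hold no read counts. Between 53646 and 68921 peaks were kept per library, and no pair of libraries held identical peaks. Libraries called 20, 24 and 21 of the 32 cluster regions in VCaP16, 22, 24 and 26 in VCaP_ENZ, and 26, 23 and 24 in VCaP_DMSO. Peaks covered 16.6 ± 0.756 kb of the cluster in VCaP16, 17.2 ± 0.882 kb in VCaP_ENZ and 17.7 ± 1.32 kb in VCaP_DMSO (SD, n = 3 each), so the group ranges overlapped. Of the bases that peaks covered in a library, the cluster held 0.0535 ± 0.00574% in VCaP16, 0.0612 ± 0.00564% in VCaP_ENZ and 0.0620 ± 0.00163% in VCaP_DMSO (SD, n = 3 each), and VCaP16 also had the longest lists on average, at 61377 peaks against 56474 in VCaP_ENZ and 55411 in VCaP_DMSO. Every VCaP16 library had a lower share (0.0470 to 0.0579%) than every VCaP_DMSO library (0.0609 to 0.0638%), and VCaP_ENZ overlapped both. The difference and the part of list length in it were not tested.

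All 9 libraries called 17 of the 32 regions, or 53.1%, and 15 varied between libraries. The share of regions called everywhere was 45.5% among the 3218 regions elsewhere on chromosome 19 and 34.9% over all merged regions. Where a call had to cover 50% of the region, 14 of the 32 were called in every library, as were 17712 of all 94773 regions. Only 1 library called 5 of the 32 (15.6%), against 22.6% of all regions. The cluster regions had a median width of 707.5 bp, against 559 bp elsewhere on chromosome 19 and 501 bp over all regions. These shares and widths are descriptions, and the differences between them were not tested.

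**Figure D1:**
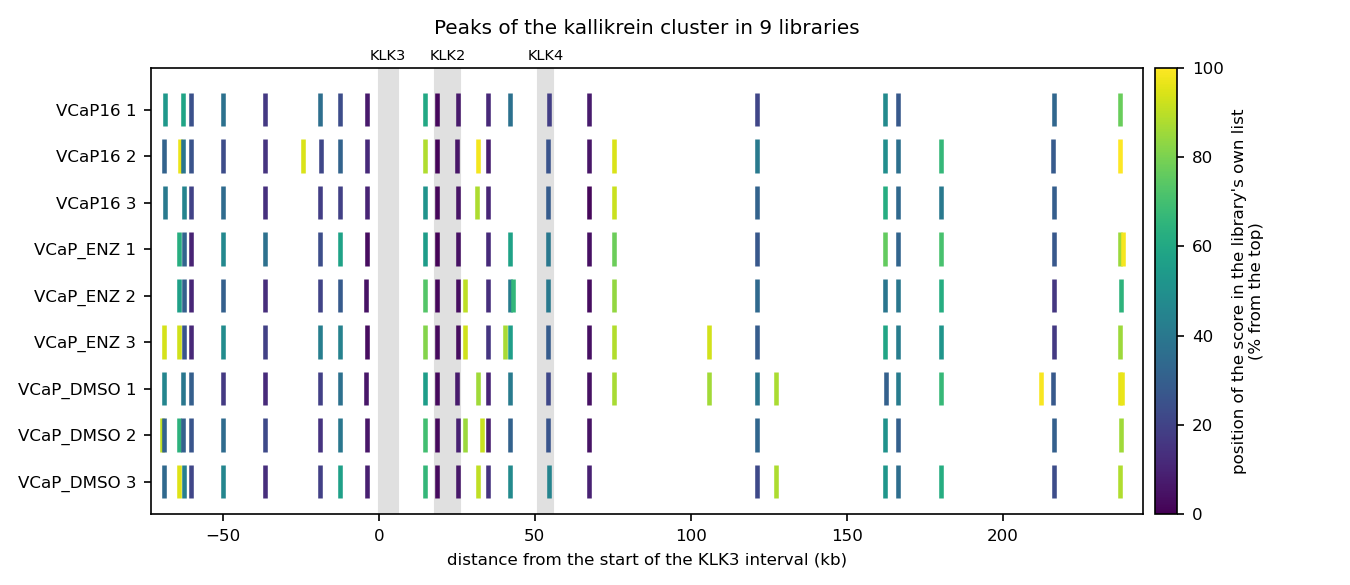
Peaks of the kallikrein cluster in each of the 9 libraries, placed by the distance of the peak centre from the start of the KLK3 interval in kb (x axis) and coloured by the position of the authors' score in the library's own list in percent from the top (dark: strongest). Grey bands are the KLK3, KLK2 and KLK4 intervals: the KLK3 band is empty in every library, dark peaks stand just before it and in the KLK2 band, and 17 positions are filled in all 9 rows.

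No peak of any library overlapped the KLK3 interval. The stretch without a peak ran from 51354688 to 51372454, 17.8 kb in all, and so held the whole KLK3 interval with the sequence on both sides of it. It was only the fifth longest of the gaps between cluster regions. The 3 longest, of 34.5, 31.8 and 29.9 kb, all lay beyond KLK4. A gap means that no peak passed the authors' threshold at the depth of these libraries, not that the chromatin was closed.

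The strongest open region near KLK3 was R10 (chr19:51353619-51354687, 1069 bp), with its centre at -3.85 kb from the start of the KLK3 interval, on the side where the upstream enhancer of KLK3 is known to lie. To set libraries side by side, scores were ranked within each library over the 33033 regions that all 9 libraries called, and the position of a region is given in percent from the top, so that a small percentage is a strong rank. R10 stood at 12.1, 20.7 and 20.4% from the top in VCaP16, at 5.28, 9.31 and 5.51% in VCaP_ENZ, and at 10.9, 10.0 and 14.1% in VCaP_DMSO. All 3 VCaP_ENZ libraries ranked it above every VCaP_DMSO and every VCaP16 library, while VCaP16 and VCaP_DMSO overlapped. The authors' scores behind these ranks were 44.3, 35.6 and 49.3 in VCaP16, 64.6, 65.6 and 60.9 in VCaP_ENZ, and 62.4, 55.3 and 44.8 in VCaP_DMSO.

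Differences in rank were tested with limma on the normal score of the rank, in SD units of a normal distribution, so that a positive difference is a stronger rank, with Benjamini-Hochberg adjustment over all 33033 regions. For R10 the difference of VCaP16 from VCaP_ENZ was -0.57 (SE 0.19, 95% interval -0.99 to -0.16), with an unadjusted p of 0.0109 and an adjusted p of 0.256, which did not pass the threshold of 0.05. VCaP_ENZ differed from VCaP_DMSO by 0.32 (SE 0.19, adjusted p 0.586) and VCaP16 from VCaP_DMSO by -0.26 (SE 0.19, adjusted p 0.591). Covered width ran the other way in its group means: peaks covered 689, 886 and 912 bp of R10 in VCaP16, 591, 781 and 642 bp in VCaP_ENZ, and 868, 843 and 708 bp in VCaP_DMSO. These widths overlapped between all groups, and none of the 3 width differences passed the test (smallest adjusted p 0.779, limma).

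Between KLK3 and KLK2 lay a single region, R11 (chr19:51372455-51373062). All 9 libraries called it, but it was the weakest of the 17 shared regions by its median of 88.3% from the top. R27 was weaker in 2 libraries, and R9 in VCaP_ENZ replicate 1. R11 stood at 85.1, 98.5 and 85.5% from the top in VCaP16, 79.3, 96.5 and 96.0% in VCaP_ENZ, and 82.9, 91.5 and 88.3% in VCaP_DMSO. All groups overlapped there.

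KLK2, in contrast to KLK3, held 2 strong regions inside its interval. R12 (chr19:51376183-51376967) lay at the start of the KLK2 interval and was the best-ranked region of the cluster in 8 of 9 libraries; in VCaP16 replicate 3 R22 ranked above it. It stood at 3.64, 2.06 and 3.68% from the top in VCaP16, at 1.79, 3.99 and 4.31% in VCaP_ENZ, and at 4.68, 4.43 and 4.90% in VCaP_DMSO. Every VCaP16 and every VCaP_ENZ library ranked it above every VCaP_DMSO library, by small margins. The differences were 0.20 for VCaP16 against VCaP_DMSO and 0.18 for VCaP_ENZ against VCaP_DMSO (SE 0.18 each), and their limma adjusted p-values of 0.694 and 0.781 did not pass. VCaP16 and VCaP_ENZ differed by 0.02 with a 95% interval of -0.38 to 0.42. Authors' scores of R12 ran between 67.1 and 99.6 over the 9 libraries.

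The other KLK2 region, R13 (chr19:51382391-51384239), lay at the end of the KLK2 interval. It stood at 12.2, 9.47 and 11.0% from the top in VCaP16, at 7.57, 6.59 and 5.56% in VCaP_ENZ, and at 12.5, 14.97 and 10.2% in VCaP_DMSO. As at R10, each VCaP_ENZ library ranked it above all libraries of both other groups, and VCaP16 and VCaP_DMSO overlapped. The difference of VCaP_ENZ from VCaP_DMSO was 0.36 (SE 0.17, 95% interval -0.01 to 0.73), with an unadjusted p of 0.0553 and a limma adjusted p of 0.471. VCaP16 differed from VCaP_ENZ by -0.28 (SE 0.17, limma adjusted p 0.551). Since the comparisons share the VCaP_ENZ libraries, these differences are not independent.

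Between KLK2 and KLK4, in the stretch that holds KLKP1, 7 regions were found, and only R17 (chr19:51392546-51393413) was called by all libraries. R17 stood at 20.3, 14.6 and 22.05% from the top in VCaP16, at 19.4, 25.4 and 25.2% in VCaP_ENZ, and at 18.0, 13.6 and 24.0% in VCaP_DMSO, with all groups overlapping. The other 6 varied from library to library. VCaP16 libraries called 2, 2 and 2 of the 7 regions, VCaP_ENZ libraries 2, 4 and 4, and VCaP_DMSO libraries 3, 4 and 3. VCaP_DMSO and VCaP16 did not overlap in these counts and VCaP_ENZ overlapped both. The other stretches of the cluster did not separate these groups by their counts, and how often stretches of this size do so elsewhere was not tested.

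R19 (chr19:51399700-51400201), named after its values were seen, was called in 1 of 3 VCaP16 libraries, 3 of 3 VCaP_ENZ libraries and 3 of 3 VCaP_DMSO libraries. That pattern of group counts is shared by 0.404% of all regions. The patterns of R15 (0.374%) and R2 (0.400%) had shares as low, so the share does not mark R19 as unusual. Its score was 15.4 in the calling VCaP16 library, 9.95, 16.1 and 10.3 in VCaP_ENZ, and 17.4, 20.02 and 12.9 in VCaP_DMSO. The VCaP16 library with a peak thus scored within the range of VCaP_DMSO, and the others had no peak there. R14 (chr19:51385381-51385660, 2 VCaP_ENZ libraries and 1 VCaP_DMSO library), R15 (chr19:51389367-51389967, 2 VCaP16 and 2 VCaP_DMSO libraries) and R16 (chr19:51391057-51391402, 1 VCaP_DMSO library) had scores of 2.94 to 5.43, near the lowest score of 2.0 in any list.

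KLK4, which encodes a protease known for its part in tooth enamel and made under androgen control in the prostate, had 1 region inside its interval. R21 (chr19:51411581-51413056) stood at 31.5, 43.9 and 57.1% from the top in VCaP16, at 62.4, 70.6 and 45.4% in VCaP_ENZ, and at 37.5, 42.9 and 68.1% in VCaP_DMSO. Libraries of each group were spread widely and all groups overlapped. The difference of VCaP16 from VCaP_ENZ was 0.40 with a 95% interval of -0.21 to 1.01 (limma adjusted p 0.608).

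**Figure D2:**
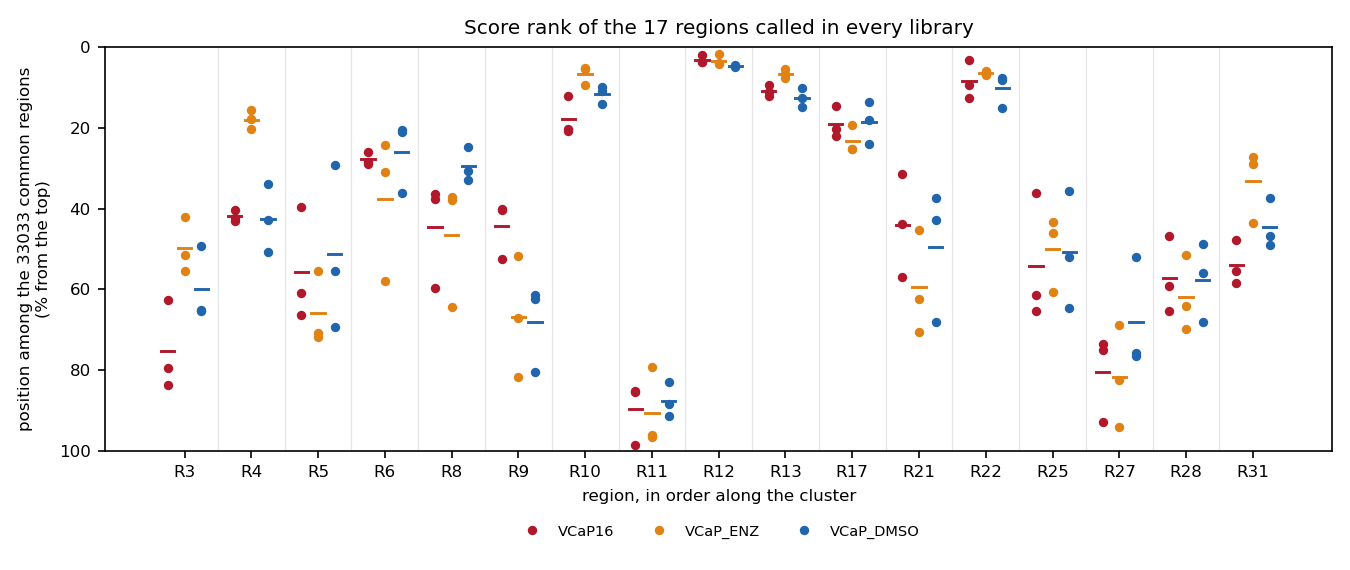
Position of the authors' score of the 17 regions called in every library among the 33033 regions that all 9 libraries called, in percent from the top (y axis, strongest at the top), by region along the cluster. Points are single libraries and bars are group means (n = 3): R12 is near the top in every library, and R4, R10 and R13 have all 3 VCaP_ENZ points above the points of both other groups.

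On the KLK1 and KLK15 side of KLK3, 10 regions were found with R10 among them, and all 9 libraries called 7 of the 10. KLK1 encodes tissue kallikrein, which releases kinins, and KLK15 encodes a protease of the same family. The widest cluster region was R4 (chr19:51296706-51298913, 2208 bp), and it had the clearest pattern over the groups. R4 stood at 42.4, 43.0 and 40.3% from the top in VCaP16, at 15.7, 20.4 and 17.9% in VCaP_ENZ, and at 50.9, 42.8 and 33.8% in VCaP_DMSO. VCaP_ENZ was apart from both other groups, which overlapped. VCaP_ENZ differed from VCaP_DMSO by 0.73 (SE 0.18, 95% interval 0.33 to 1.12), with an unadjusted p of 0.00205 and a limma adjusted p of 0.205. VCaP16 differed from VCaP_ENZ by -0.71 (SE 0.18), with an unadjusted p of 0.0023 and a limma adjusted p of 0.157, and from VCaP_DMSO by 0.01 with a 95% interval of -0.38 to 0.41. None of the 3 passed over all regions.

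Its neighbour R3 (chr19:51294524-51296342) stood at 83.7, 62.8 and 79.6% from the top in VCaP16, at 51.4, 55.5 and 42.0% in VCaP_ENZ, and at 65.2, 49.3 and 65.3% in VCaP_DMSO. Each VCaP16 library ranked R3 below each VCaP_ENZ library, and VCaP_DMSO overlapped both. VCaP16 differed from VCaP_ENZ by -0.72 (SE 0.22, unadjusted p 0.00878, limma adjusted p 0.237). R3 was also the only one of the 17 tested cluster regions whose covered width had an unadjusted p under 0.05. Peaks covered 1148, 1321 and 1425 bp of it in VCaP16, 1476, 1341 and 1819 bp in VCaP_ENZ, and 1322, 951 and 1079 bp in VCaP_DMSO. VCaP_ENZ did not overlap VCaP_DMSO, as in 10.3% of all regions, and the log2 difference after centring each library was 0.49 (unadjusted p 0.0235, limma adjusted p 0.669).

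R9 (chr19:51345163-51346006), with its centre at -12.4 kb from the start of the KLK3 interval, went in another direction. It stood at 40.3, 52.6 and 40.0% from the top in VCaP16, at 81.8, 51.9 and 67.0% in VCaP_ENZ, and at 61.3, 62.3 and 80.5% in VCaP_DMSO. VCaP16 ranked it above all VCaP_DMSO libraries, and VCaP_ENZ overlapped both groups. VCaP16 differed from VCaP_DMSO by 0.63 (SE 0.26, unadjusted p 0.032, limma adjusted p 0.297) and from VCaP_ENZ by 0.61 (SE 0.26, unadjusted p 0.0374, limma adjusted p 0.368). R8 (chr19:51338830-51339680) had another order, at 59.6, 36.3 and 37.6% in VCaP16, 38.0, 37.2 and 64.4% in VCaP_ENZ, and 33.0, 24.6 and 30.6% in VCaP_DMSO. Each VCaP_DMSO library ranked R8 above all others, with limma adjusted p-values of 0.510 for VCaP16 against VCaP_DMSO and 0.550 for VCaP_ENZ against VCaP_DMSO. R5 (chr19:51307595-51308577) and R6 (chr19:51321153-51322065) overlapped between all groups, at 29.2 to 71.7% and 20.5 to 57.9% from the top over the 9 libraries.

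Of the 11 regions beyond KLK4, toward KLK5 to KLK14, all 9 libraries called 5. KLK5 to KLK14 include proteases of skin shedding and of other epithelia. R22 (chr19:51425001-51426010), centred 11.5 kb beyond the KLK4 interval, was the strongest of them, at 12.6, 9.50 and 3.33% from the top in VCaP16, 6.91, 5.99 and 6.77% in VCaP_ENZ, and 7.62, 8.14 and 15.1% in VCaP_DMSO. VCaP_ENZ ranked it above VCaP_DMSO in all libraries, while VCaP16 overlapped both (limma adjusted p 0.769 for VCaP_ENZ against VCaP_DMSO).

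R22 also had the steadiest end of the cluster and the largest shared core in percent of its own region. In bp its core of 936 was shorter than those of R4 (1497), R13 (1230) and R3 (939). The start of R22 moved by 31 bp (25 bp at R27) and its end by 43 bp between libraries. Medians were 196 and 194 bp over the 17 shared cluster regions and 193 bp for each over the 29566 regions so measured. The bases that every library covered made up 92.7% of R22, against a median of 60.9% in the cluster and 47.3% over these 29566 regions. Of the 29566, 0.189% reached as much. Covered widths of R22 were 965, 951 and 992 bp in VCaP16, 959, 944 and 973 bp in VCaP_ENZ, and 982, 978 and 961 bp in VCaP_DMSO. The groups overlapped, and all 9 widths lay between 944 and 992 bp.

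R31 (chr19:51573703-51574826) stood at 55.4, 47.9 and 58.5% from the top in VCaP16, at 43.6, 29.1 and 27.2% in VCaP_ENZ, and at 46.9, 49.1 and 37.4% in VCaP_DMSO. Each VCaP16 library ranked it below each VCaP_ENZ library (difference -0.54, SE 0.19, unadjusted p 0.0186, limma adjusted p 0.298). R25 (chr19:51479014-51479470), R27 (chr19:51520116-51520805) and R28 (chr19:51524180-51524755) overlapped between all groups. They ranged over 35.7 to 65.4%, 51.9 to 94.2% and 46.7 to 69.8% from the top.

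Over the 17 shared regions, limma called 0 regions with a changed rank at an adjusted p under 0.05 in any comparison. For VCaP16 against VCaP_DMSO, 0.775% of all 33033 regions were called, for VCaP_ENZ against VCaP_DMSO 0.0%, and for VCaP16 against VCaP_ENZ 0.00303%. At an unadjusted p under 0.05 limma gave 1 of 17 cluster regions for VCaP16 against VCaP_DMSO (14.2% of all regions), 1 of 17 for VCaP_ENZ against VCaP_DMSO (10.8% of all) and 5 of 17 for VCaP16 against VCaP_ENZ (12.3% of all). The exact permutation test of 3 against 3 libraries cannot go below 0.1, so its count of 0 regions under 0.05 is fixed by the design. A difference that missed the threshold is not shown to be absent.

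Group ranges of the rank did not overlap for 3 of the 17 regions in VCaP16 against VCaP_DMSO (R8, R9 and R12), against 19.9% of all regions. In VCaP_ENZ against VCaP_DMSO the count was 6 of 17 (R4, R8, R10, R12, R13 and R22), against 15.8% of all regions, with R8 weaker and the other 5 stronger in VCaP_ENZ. In VCaP16 against VCaP_ENZ it was 5 of 17 (R3, R4, R10, R13 and R31), against 17.6% of all regions, and all 5 were weaker in VCaP16. Median differences over the 17 were small: -0.07 for VCaP16 against VCaP_DMSO, 0.02 for VCaP_ENZ against VCaP_DMSO and 0.04 for VCaP16 against VCaP_ENZ, beside -0.02, -0.0041 and -0.0012 over all regions.

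**Figure D3:**
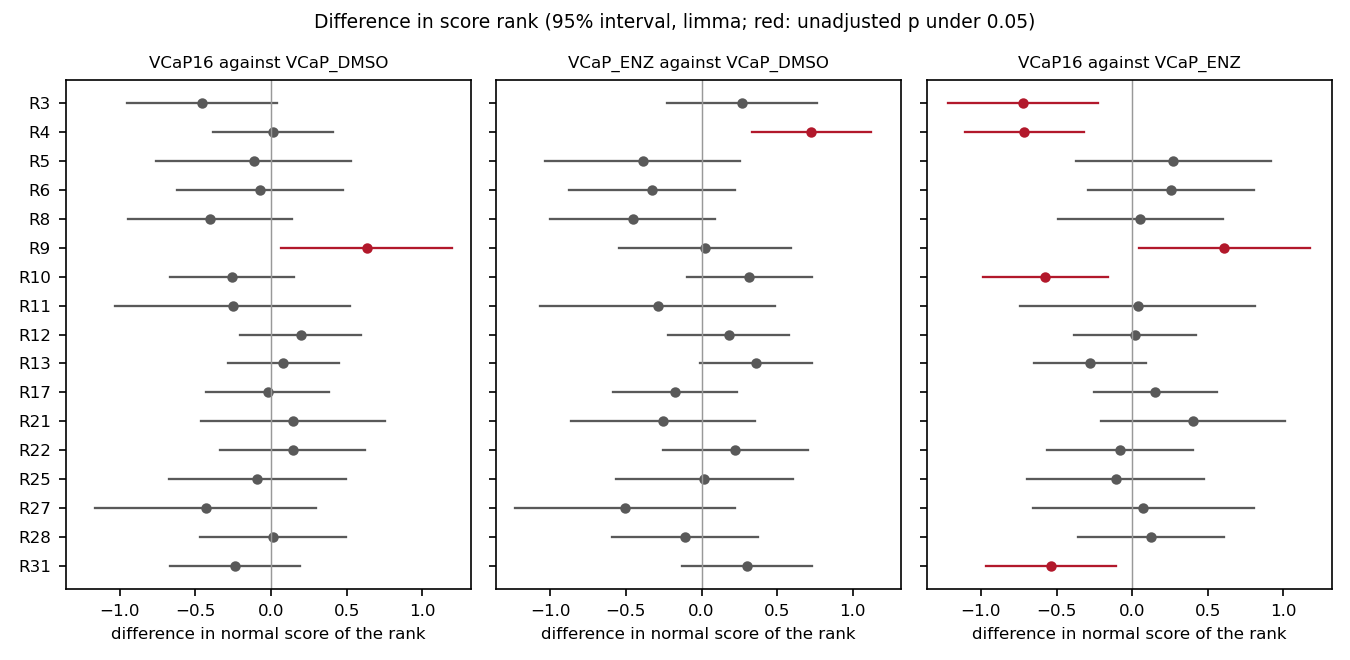
Difference in the normal score of the rank (x axis, SD units, positive for a stronger rank in the group named before "against") for the 17 shared regions in each comparison, with 95% intervals from limma. Red marks an unadjusted p under 0.05: R9 in the left panel, R4 in the middle panel, and R3, R4, R9, R10 and R31 in the right panel, of which R9 lies to the right of 0 and the others to the left.

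Covered width was compared over the same 17 regions, and limma called 0 at an adjusted p under 0.05 in each comparison, as it did over all regions (0.0% each). At an unadjusted p under 0.05 the counts were 0 for VCaP16 against VCaP_DMSO (7.74% of all regions), 1 for VCaP_ENZ against VCaP_DMSO (6.96% of all; this is R3) and 0 for VCaP16 against VCaP_ENZ (6.91% of all). The exact permutation test was run on ranks and not on widths. R4 and R13 were wide in every library, at 1685 to 2086 bp and 1265 to 1735 bp, while R12, the strongest region by its median rank, covered 538 to 741 bp.

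**Figure D4:**
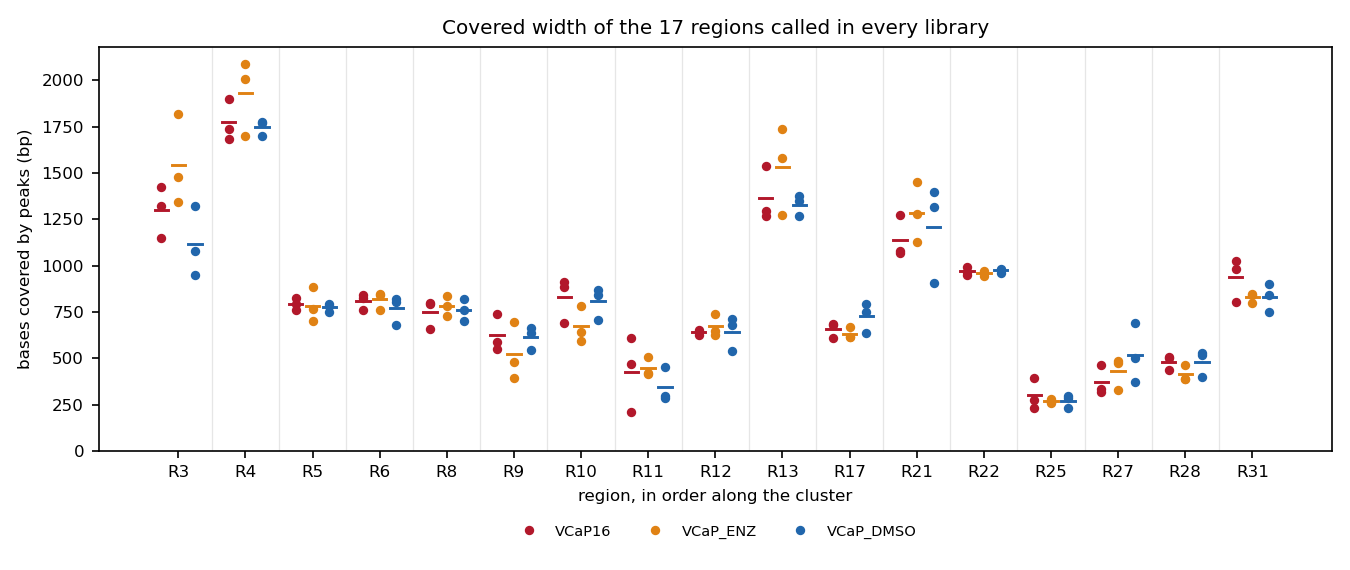
Bases covered by peaks in each of the 17 shared regions (y axis, bp), by region along the cluster. Points are single libraries and bars are group means (n = 3): R3, R4, R13 and R21 are the wide regions, and the points of R22 nearly coincide.

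In each comparison 0 cluster regions had a call in 3 of 3 libraries on one side and in 0 of 3 on the other, a pattern that 2.16% of all regions had for VCaP16 against VCaP_DMSO, 1.21% for VCaP_ENZ against VCaP_DMSO and 1.54% for VCaP16 against VCaP_ENZ. At shares this low, a count of 0 among 32 regions is near the background, and 1 to 3 such regions were counted under some other settings. No test of single regions was made on calls, because 3 against 3 libraries cannot give an exact p below 0.1.

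R1 (chr19:51288179-51290091), at the edge of the cluster and named after its values were seen, came within 1 library of that pattern. R1 was called in 3 of 3 VCaP16 libraries, 1 of 3 VCaP_ENZ libraries and 3 of 3 VCaP_DMSO libraries, group counts that 0.579% of all regions share. Other mixed patterns in the cluster had shares as low (0.374% for R15 and 0.400% for R2), so this share does not mark R1 as unusual. Its scores were 10.7, 19.01 and 17.3 in VCaP16, 3.76 in the calling VCaP_ENZ library, and 15.3, 19.9 and 18.1 in VCaP_DMSO. Peaks covered 1009, 1459 and 1353 bp of it in VCaP16, 181 bp in that VCaP_ENZ library, and 1846, 1255 and 1637 bp in VCaP_DMSO. The score and width in that 1 VCaP_ENZ library were below those of every VCaP16 and every VCaP_DMSO library. The other VCaP_ENZ libraries had no peak in R1, so the group has no spread to compare. How often regions elsewhere differ in this way was not tested.

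With regions that lacked a call placed at the lowest rank, R1 was the cluster region that limma called. In that fit it was weaker in VCaP_ENZ than in VCaP_DMSO (0.206% of 66108 regions called) and stronger in VCaP16 than in VCaP_ENZ (0.817% called). The ranks of 2 of the 3 VCaP_ENZ libraries are filled in there rather than measured, and R1 entered through the groups in which it is high, so no size or p is given. R1 belongs to the cluster by 0.091 kb: of the 7 libraries with a peak in it, peaks of 2 reached past the boundary at 51290000. The next regions outside the boundaries were chr19:51280944-51281533, called in 5 libraries, and chr19:51600564-51600865, called in 4.

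**Figure D5:**
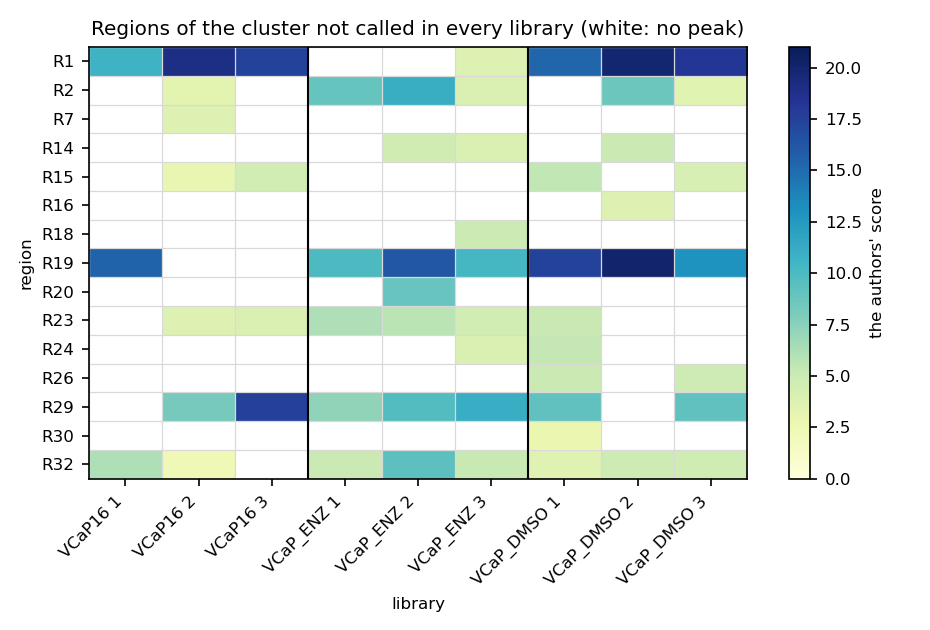
Authors' score of the 15 cluster regions that not all libraries called (rows) in each library (columns, groups divided by black lines), with white for no peak. R1 is nearly empty in VCaP_ENZ, R19 nearly empty in VCaP16, and most other rows hold scores below 10.

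The remaining variable regions, named after their values were seen, had scores of at most 17.6. R2 was called in 1 VCaP16, 3 VCaP_ENZ and 2 VCaP_DMSO libraries, and R23 in 2 VCaP16, 3 VCaP_ENZ and 1 VCaP_DMSO library. R29 was called in 2 VCaP16, 3 VCaP_ENZ and 2 VCaP_DMSO libraries, and R32 in 2 VCaP16, 3 VCaP_ENZ and 3 VCaP_DMSO libraries. R24 was called in 1 VCaP_ENZ and 1 VCaP_DMSO library and R26 in 2 VCaP_DMSO libraries. The 5 regions of a single library were R7 in VCaP16, R18 and R20 in VCaP_ENZ, and R16 and R30 in VCaP_DMSO, with scores of 2.74 to 8.85.

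Regions elsewhere with a rank pattern most like that of R10 over the 9 libraries were chr1:19046383-19047078 (Pearson r = 0.964), chr21:46000014-46000662 (r = 0.962) and chr14:104902251-104902859 (r = 0.951), and 40 regions in all had r over 0.9. Within the cluster the closest were R4 (r = 0.716) and R3 (r = 0.667), while R12 had r = 0.011 and R9 had r = -0.545. These values describe the same 9 libraries, which share their depth and their groups over all regions, and carry no p.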

How the data were processed

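ATAC-seq peak lists of 9 libraries were analysed, 3 each of VCaP16, VCaP_ENZ and VCaP_DMSO as the labels name them. The authors deposited 1 peak list per library with chromosome, start, end, name and score, so replicates were not pooled. Build hg19 and the tools MACS2 2.2.7.1, BWA 0.7.15-r1140 and HOMER 3.12 come from the submitters' processing notes, without roles or settings; read filters and any Tn5 shift are not stated there. The deposited score has no stated scale and was never below 2.0, so it served for ranks and cut-offs inside a single list. A score and the number of peaks move with depth, which is unknown, and no interval or floor from counts could be given. Per the labels' protocols, cells for bulk libraries were fixed with 1% formaldehyde; the same text describes a single-cell preparation, and the lists were taken as bulk.

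Chromosomes 1 to 22 and X were used, and their peaks merged at an overlap of at least 1 bp, and a region was called in a library if a peak overlapped it by at least 1 bp. A region's score in a library was its best peak's score. Over the 33033 regions called in all 9 libraries, ranks were turned into normal scores within each library, and covered bases into log2 values minus the library's median. Both were fitted with limma 3.58.1 in R 4.3.3, 1 coefficient per group, with Benjamini-Hochberg adjustment over all these regions and a two-sided threshold of 0.05. The rank fit was tested on simulated data for VCaP16 against VCaP_DMSO, with 200 regions shifted by 1, 2 or 3 in normal score. It found 0, 158 and 187 of the 200. Shifts as small as the differences of the 17 shared cluster regions were not simulated. A region that did not pass is not shown to be alike between groups. Regions missing from some library enter the counts of calls and, as an alternative, a rank fit over the 66108 regions that 2 or more libraries of the same group called, with missing calls set to the lowest rank. Other work used Python 3.11.15, pandas 2.3.3, scipy 1.17.1 and Biopython 1.88 (global alignment of promoter windows).

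The members and lists were chosen with earlier results of these data known. Regions are named if they overlap KLK3, KLK2 or KLK4, lie within 10 kb of KLK3 or KLK2, were called in all 9 libraries, show 3 of 3 against 0 of 3 calls, pass a test, or are the best ranked or widest; others named are marked as chosen after their values were seen or are given by call counts only. Alternatives were a minimum score of 5, lists of equal length (53646 best peaks), peaks covering at least 50% of the region, 250 bp windows about peak midpoints, leaving out each library in turn, a replicate block, uncalled regions at the lowest rank, an exact permutation test, widths without centring and the widest single peak.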

Additional observations from a re-analysis of the deposited data

How the results depend on the processing

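Of 592 values recomputed under the planned settings, 560 had the same direction and test outcome (counts: within 1.5 times), 16 counts moved and 16 differences of single regions changed sign; the cause was not tested. Of the 560, 3 are counts from the exact permutation test, which could only be 0. The 16 that moved are counts of cluster regions that were 0 in the results. Regions called in 3 of 3 against 0 of 3 libraries numbered 1 for VCaP_ENZ against VCaP_DMSO with a minimum score of 5 and 1 with an overlap of 50% (R1 each time). For VCaP16 against VCaP_ENZ they numbered 1 with a minimum score of 5 (R1), 2 with lists of equal length (R2 and R23) and 3 with an overlap of 50% (R1, R2 and R23). Over all regions the pattern was held by 975 of 75799 (minimum score) and 1270 of 94773 (overlap) for VCaP_ENZ against VCaP_DMSO. For VCaP16 against VCaP_ENZ, 1329 of 75799, 1465 of 83811 (equal length) and 1725 of 94773 held it. Leaving out 1 library, which makes the pattern 2 against 3, gave 0 to 1 for VCaP16 against VCaP_DMSO, 0 to 2 for VCaP_ENZ against VCaP_DMSO and 0 to 2 for VCaP16 against VCaP_ENZ. In the same order, 2045 to 3852, 1148 to 2354 and 1457 to 3102 of 89593 to 93412 regions held it over the genome. For the cluster, the libraries concerned were VCaP16 replicates 1 (R15 and R19) and 2 (R2), VCaP_ENZ replicates 1 (R14) and 3 (R1), and VCaP_DMSO replicates 1 (R23) and 2 (R15 and R26). Changed ranks numbered 1 for VCaP_ENZ against VCaP_DMSO and 1 for VCaP16 against VCaP_ENZ with uncalled regions at the lowest rank (R1). In that fit R1 entered through the groups in which it is high, and its missing VCaP_ENZ calls were filled in, so these counts are no evidence of a difference. Regions called by all libraries numbered 16 with a minimum score of 5, 14 with an overlap of 50% and 17 to 18 otherwise. Over the whole genome the numbers were 29706 of 75799, 17712 of 94773 and 31870 to 34012. None of the 16 sign changes, among 444 differences of single regions recomputed, passed the threshold. Leaving out 1 library gave -0.10 to 0.12 for R4, -0.43 to 0.13 for R11 and -0.10 to 0.31 for R21 in VCaP16 against VCaP_DMSO, and -0.19 to 0.24 for R9 in VCaP_ENZ against VCaP_DMSO. For VCaP16 against VCaP_ENZ it gave -0.14 to 0.41 for R11 and -0.064 to 0.14 for R12, and R11 was at -0.0203 with lists of equal length and at -0.0304 with uncalled regions at the lowest rank.

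Deviations of same-numbered libraries had r of -0.0056 to 0.0455 (median 0.0014), and of others -0.0339 to 0.0172 (median -0.0096). All values were near 0, but they do not exclude that replicate numbers pair the libraries. With a replicate block 0 cluster regions were called for rank or width in each comparison, and over all regions 23 were called for rank in VCaP16 against VCaP_DMSO, 0 in VCaP_ENZ against VCaP_DMSO and 0 in VCaP16 against VCaP_ENZ. Without the block these were 256, 0 and 1. Leaving out 1 library gave 6 to 214 for VCaP16 against VCaP_DMSO, and uncalled regions at the lowest rank gave 1400, 136 and 540 over more regions. Depth is unknown and limits all calls of weak regions.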
